A study of Mus musculus with 9 samples.

Results

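The 10 enteroendocrine genes described here were picked by symbol and were all found among the 50600 genes measured: the regulators Neurog3 and Neurod1, the granins Chga and Chgb, the peptide hormone genes Gcg, Cck, Sct, Gip and Tac1, and Tph1, which makes the serotonin precursor. RNA-sequencing was performed on 9 mouse libraries in 3 groups of 3. WT organoids of the small intestine (strain given as C57BL/6) were kept for 24 hr in equal volumes of organoid medium and conditioned medium (cM). The cM was made by tumoroids (T-cM) or by WT organoids (WT-cM). The study's methods, however, call the background of all its mice mixed. Untreated tumoroids were grown from intestinal tumours of Apc1638N/+ mice (strain given as MIX), which were older than the mice that gave organoids, so that genotype, strain, age and medium cannot be told apart when tumoroids are compared with organoids. The labels describe all cultures as epithelial cells and do not name the mouse or line behind each replicate, while the study's methods state in general that lines came from different mice, and p-values measure the spread between these libraries.

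Titles and treatment fields of the 6 organoid libraries name opposite media. Groups here follow the titles, hence the names T-cM-titled organoids and WT-cM-titled organoids, and each direction given between them turns round if the treatment field is right. The comparison of tumoroids with all organoids does not depend on that label. All 10 genes reached 1 TPM in some library, as did the 16208 genes tested in all. Total counts per library ranged from 16541635 to 25170966, and 3 counts corresponded to 0.103 to 0.204 CPM, the unit used below for counts relative to normalised depth. Apc itself, the gene mutated in the tumour mice, was at 139 ± 22.8 CPM in organoids (SD, n = 6) and 103 ± 22.5 CPM in tumoroids (SD, n = 3), with an adjusted p of 0.070 by edgeR.

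Enteroendocrine cells are scattered hormone-secreting cells of the gut epithelium that arise from the same stem cells as enterocytes, goblet, Paneth and tuft cells. A secretory progenitor that briefly switches on the transcription factor Neurog3 enters the endocrine path, and Neurod1 follows Neurog3 and stays on during differentiation. The mature cells store their products in dense-core granules, packed with the acidic proteins chromogranin A and B, and different cells release different hormones. In bulk libraries, fewer endocrine cells and less RNA per cell cannot be told apart.

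On the scale of TPM (counts per gene length, scaled per library), Gip and Chgb were the most abundant of the 10 genes in both organoid groups. In WT-cM-titled organoids, the mean TPM was 303 ± 38.2 for Gip, 247 ± 66.3 for Chgb, 94.3 ± 18.4 for Chga, 82.5 ± 26.8 for Cck and 76.4 ± 13.9 for Gcg (SD, n = 3). Sct followed at 47.1 ± 16.9 TPM, and Tac1 and Tph1 were lower again at 7.25 ± 2.27 and 5.00 ± 1.05 TPM. Neurod1 and Neurog3 were the lowest at 1.83 ± 0.405 and 1.12 ± 1.43 TPM. Within that order, the ranges over 3 libraries overlapped for Gip and Chgb, for Chga, Cck and Gcg, for Tac1 and Tph1, and for Neurod1 and Neurog3, whereas every value of Gcg was above every value of Sct. In T-cM-titled organoids the order was the same except that Gcg, at 37.37 ± 18.05 TPM, came below Sct at 56.6 ± 11.1 TPM, and those ranges overlapped. In tumoroids Chgb came first at 298 ± 339 TPM and Gip second at 164 ± 145 TPM, with a spread between the 3 cultures about as large as the means, and Neurog3, the lowest gene in organoids, was the fourth at 18.1 ± 11.4 TPM.

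**Figure D1:**
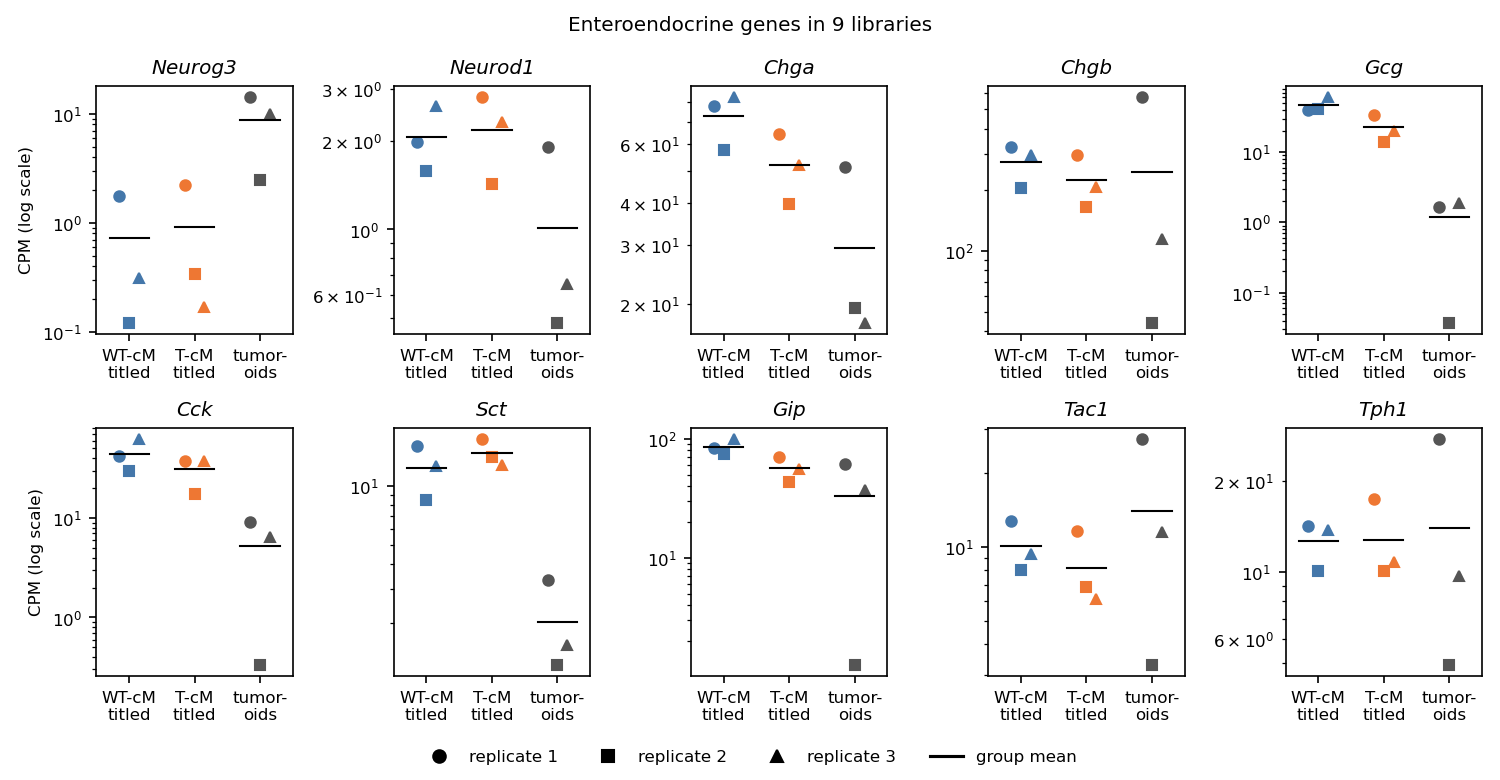
Each panel plots 1 gene in CPM on a log axis whose range differs between panels, with 1 symbol per library, shaped by replicate number, and a bar at the group mean. Gcg, Cck and Sct lie lower in every tumoroid than in every organoid library and Neurog3 lies higher, while tumoroid 2 holds the lowest value of 9 for Neurod1, Chgb, Gcg, Cck, Sct, Gip, Tac1 and Tph1.

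Factors of the Neurog3 and Neurod1 family bind DNA at E-boxes, short motifs of the form CANNTG, of which CAGATG is a known form. All 10 genes had a promoter in the RefSeq table used (11 entries on GRCm38.p6, 250 bases before to 50 bases after the start), and both strands were searched for CAGATG, which reads as CATCTG where it lies on the other strand. It was present in the windows of 4 genes, Gcg, Cck, Sct and Tac1, against 17.2% of all 32851 promoters of that length. Gcg held it at 139 and 83 bases before the start, Cck at 30, Sct at 242 and Tac1 at 173. Those 4 windows are printed because 3 of them belong to the hormone genes that were lower in every tumoroid, beside Gip, another hormone gene, and Neurog3, the regulator that was higher, neither of which held the motif. Motif and direction did not go together throughout, since Chga passed as lower in tumoroids without the motif and Tac1 did not pass with it. Sequences run 5′ to 3′ along the gene's strand, and capitals mark the motif on either strand.
Gcg, chr2:62483604-62483903, - strand: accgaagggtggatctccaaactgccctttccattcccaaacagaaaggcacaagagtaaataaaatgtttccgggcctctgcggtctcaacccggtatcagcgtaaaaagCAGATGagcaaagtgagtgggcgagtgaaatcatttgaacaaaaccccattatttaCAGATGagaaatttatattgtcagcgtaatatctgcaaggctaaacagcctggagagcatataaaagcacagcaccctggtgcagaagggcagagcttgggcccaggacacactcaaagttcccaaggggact
Cck, chr9:121495645-121495944, - strand: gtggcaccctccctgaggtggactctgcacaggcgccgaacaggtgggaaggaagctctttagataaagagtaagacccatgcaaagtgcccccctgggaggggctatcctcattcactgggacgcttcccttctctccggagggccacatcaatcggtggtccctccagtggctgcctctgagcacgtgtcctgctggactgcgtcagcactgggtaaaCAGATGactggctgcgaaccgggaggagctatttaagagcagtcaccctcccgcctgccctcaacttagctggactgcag
Sct, chr7:141279084-141279383, - strand: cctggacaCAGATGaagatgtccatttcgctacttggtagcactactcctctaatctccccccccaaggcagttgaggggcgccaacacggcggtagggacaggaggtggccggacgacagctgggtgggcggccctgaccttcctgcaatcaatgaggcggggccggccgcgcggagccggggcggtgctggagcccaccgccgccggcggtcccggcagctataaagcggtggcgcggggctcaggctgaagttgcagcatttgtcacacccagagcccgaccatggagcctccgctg
Tac1, chr6:7554811-7555110, + strand: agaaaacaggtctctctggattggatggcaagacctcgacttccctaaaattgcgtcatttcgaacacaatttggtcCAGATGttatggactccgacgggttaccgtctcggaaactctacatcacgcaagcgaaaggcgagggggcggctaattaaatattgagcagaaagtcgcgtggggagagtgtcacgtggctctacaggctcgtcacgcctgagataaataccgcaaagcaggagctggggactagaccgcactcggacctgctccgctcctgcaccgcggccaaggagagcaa
Gip, chr11:96024295-96024594, + strand: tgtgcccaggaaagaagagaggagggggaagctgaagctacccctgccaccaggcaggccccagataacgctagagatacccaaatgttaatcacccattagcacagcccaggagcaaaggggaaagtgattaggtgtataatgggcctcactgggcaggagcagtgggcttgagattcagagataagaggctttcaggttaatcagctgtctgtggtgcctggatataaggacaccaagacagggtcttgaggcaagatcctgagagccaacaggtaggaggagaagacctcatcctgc
Neurog3, chr10:62132840-62133139, + strand: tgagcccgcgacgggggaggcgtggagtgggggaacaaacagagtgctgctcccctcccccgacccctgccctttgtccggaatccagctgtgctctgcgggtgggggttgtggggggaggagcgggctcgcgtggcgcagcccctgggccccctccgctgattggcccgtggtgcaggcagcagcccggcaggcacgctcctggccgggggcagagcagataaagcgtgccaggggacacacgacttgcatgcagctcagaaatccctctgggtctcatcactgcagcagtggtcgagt
A match describes letters in a window, and binding was not measured.

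Between the organoid groups, 5 of the 10 genes were lower in T-cM-titled organoids and 0 were higher, against 10.1% of all tested genes that passed the test in either direction, 5.05% that were lower and 5.03% that were higher. The 5 were the hormone genes Gcg, Gip and Cck and both granins, and Gcg changed the most, 2.16-fold. Of all 10 genes, 6 were lower in 3 of 3 replicate pairs (these 5 and Tac1), which 22.3% of all tested genes were. The test was edgeR's quasi-likelihood F test with Benjamini-Hochberg adjustment over all tested genes and with replicate number as a block, and a gene counts as past it at an adjusted p under 0.05. The median log2 fold change of the 10 genes was -0.30, and that of all tested genes was 0.

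Gcg (ENSMUSG00000000394.15, chr2:62474530-62483650, - strand, GRCm38) encodes proglucagon, which gut L cells cut into the incretin GLP-1. Its level was 40.2, 41.3 and 60.3 CPM in WT-cM-titled organoids 1 to 3 and 33.37, 13.77 and 20.01 CPM in T-cM-titled organoids 1 to 3, from 203 to 1361 counts. The groups did not overlap, and pairs 2 and 3 differed by about the same amount, 3.00-fold and 3.01-fold, whereas pair 1 differed 1.21-fold. The fitted log2 fold change was -1.11 ± 0.15 (SE, adjusted p = 1.0e-05, edgeR), which made Gcg the only gene of the 10 past the fold threshold of 1 as well, with 1.1% of all tested genes.

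Gip (chr11:96024545-96030831, + strand) encodes the incretin of K cells, which promotes insulin release after a meal. It was at 83.7, 74.4 and 99.3 CPM in WT-cM-titled organoids and 70.4, 43.8 and 56.1 CPM in T-cM-titled organoids, again without overlap. The fitted log2 fold change was -0.60 ± 0.10 (SE, adjusted p = 9.3e-05, edgeR), a 1.51-fold lower level. Gcg and Gip were the 2 of the 10 genes whose organoid groups did not overlap, against 10.4% of all tested genes.

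Cck (chr9:121489824-121495694, - strand) encodes cholecystokinin of I cells, which empties the gall bladder and signals satiety. Its values were 41.8, 29.9 and 61.9 CPM against 37.9, 17.6 and 37.6 CPM in T-cM-titled organoids, so that the groups overlapped although each pair was lower. The fitted log2 fold change was -0.52 ± 0.11 (SE, adjusted p = 0.0018, edgeR). The difference was smallest in pair 1 here too, -0.14 on the log2 scale, against -0.76 and -0.72 in pairs 2 and 3.

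Both granins were lower. Chga (chr12:102554969-102565028, + strand), the general marker of endocrine granules, was at 77.9, 57.6 and 82.9 CPM in WT-cM-titled organoids and 64.5, 39.8 and 51.9 CPM in T-cM-titled organoids. Its fitted log2 fold change was -0.48 ± 0.09 (SE, adjusted p = 0.00065, edgeR). Chgb (chr2:132781278-132795079, + strand), its partner in granule formation, was at 326, 205 and 297 CPM against 299, 165 and 208 CPM, a fitted change of -0.30 ± 0.08 on the log2 scale (SE, adjusted p = 0.011, edgeR). The groups overlapped for both granins.

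The other 5 genes did not pass. Sct (chr7:141278330-141279133, - strand), which encodes secretin, the hormone of S cells that calls for bicarbonate, was at 15.99, 8.51 and 12.57 CPM in WT-cM-titled organoids and 17.29, 13.98 and 12.85 CPM in T-cM-titled organoids. Its fitted log2 fold change was 0.28, with a 95% interval from 0.00 to 0.55 and an adjusted p of 0.22 by edgeR, and its value was above that of the pair's partner in 3 of 3 pairs. Tac1 (chr6:7554879-7565834, + strand), the source of substance P, was at 12.8, 8.03 and 9.30 CPM against 11.6, 6.85 and 6.14 CPM. Its change of -0.30 on the log2 scale equals that of Chgb in size, with an interval from -0.59 to -0.01 and an adjusted p of 0.20 by edgeR. Tph1 (chr7:46644641-46672537, - strand), the rate-limiting enzyme of serotonin synthesis in enterochromaffin cells, was at 14.1, 10.1 and 13.7 CPM against 17.3, 10.1 and 10.8 CPM, and its interval ran from -0.27 to 0.27.

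The regulators had few counts in organoids. Neurod1 (chr2:79452521-79456751, - strand) had 36, 26 and 59 counts in WT-cM-titled organoids and 53, 21 and 41 in T-cM-titled organoids, and its interval of the log2 fold change ran from -0.43 to 0.60. Neurog3 (chr10:62133090-62134763, + strand) had 32, 2 and 7 counts against 42, 5 and 3, so that the interval from -0.64 to 1.18 spans both signs. Neurog3 was instead split by replicate number, at 1.76 and 2.22 CPM in the organoids of pair 1 and between 0.122 and 0.339 CPM in the other 4 libraries. Pair 1 also had more of 4 stem cell markers (Lgr5, Olfm4, Ascl2 and Smoc2) in sum, mostly as Olfm4 and Smoc2, with levels of 252 and 166 CPM against 42.1 to 65.8 CPM, and less of 6 enterocyte markers in sum, with levels of 13059 and 14451 CPM against 21126 to 27176 CPM. Single markers overlapped, such as Lgr5, at 0.846 CPM in T-cM-titled organoids 1 and 1.11 CPM in WT-cM-titled organoids 3, and Alpi, at 2046 CPM in T-cM-titled organoids 1 and 1949 CPM in WT-cM-titled organoids 2. Whether these differences bear on the smaller changes of Gcg, Gip and Cck in pair 1 was not tested.

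**Figure D2:**
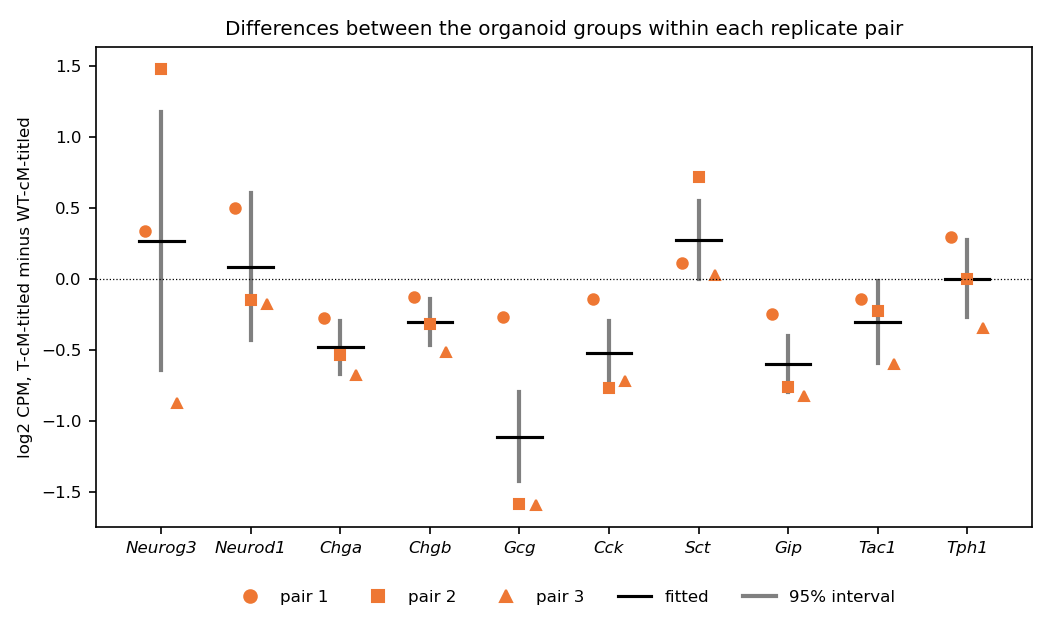
The vertical axis is the difference in log2 CPM between the T-cM-titled and the WT-cM-titled library of a pair. Symbols are the 3 pairs, black bars the fitted log2 fold changes and grey bars their 95% intervals. All 3 pairs of Gcg, Gip, Cck, Chga, Chgb and Tac1 lie below 0, all 3 of Sct lie above it, and pair 1 of Gcg stands apart from pairs 2 and 3.

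The errors above borrow the spread of other genes. The SD between the 3 pairs of Gcg was 0.76 on the log2 scale, and an exact test on the signs of 3 pairs cannot go below p = 0.25. Without pair 2, 0 of the 10 genes passed edgeR's test (5 at an unadjusted p under 0.05) and the fitted change of Gcg was -0.92. Without the block 0 passed as well (3 at an unadjusted p under 0.05, Gcg at -1.06). With limma voom 3 genes passed and with DESeq2 4, the latter without Gcg (adjusted p = 0.081). At an unadjusted p under 0.05, limma voom had 6 of the 10 genes against 3528 of all 16208. DESeq2 had 5 against 2156 by the same rule.

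The 5 peptide hormone genes together reached 271 to 582 TPM in the organoid libraries. Gip made up 55.7% to 62.1% of that sum in each of the 6 libraries, although its own level differed between the groups. The share of Gcg was 12.9%, 15.9% and 15.8% in WT-cM-titled organoids and 12.1%, 8.37% and 9.19% in T-cM-titled organoids. The share of Sct went the other way, at 11.8%, 7.57% and 7.66% against 14.6%, 19.7% and 13.7%. Cck took 12.2% to 19.8% and Tac1 1.07% to 1.85%. Shares sum to the same total, so a lower share of Gcg raises the others by construction.

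In tumoroids the make-up differed from culture to culture. The hormone sum was 361, 18.7 and 236 TPM in tumoroids 1 to 3. Gip took 80.8% and 82.0% of it in tumoroids 1 and 3 and 36.8% in tumoroid 2, where Sct took 38.1% and Tac1 19.5%. Gcg took 1.02%, 0.483% and 1.88%, below the lowest organoid share of 8.37%. Tac1 took 7.29%, 19.5% and 5.10%, above the highest organoid share of 1.85%.

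**Figure D3:**
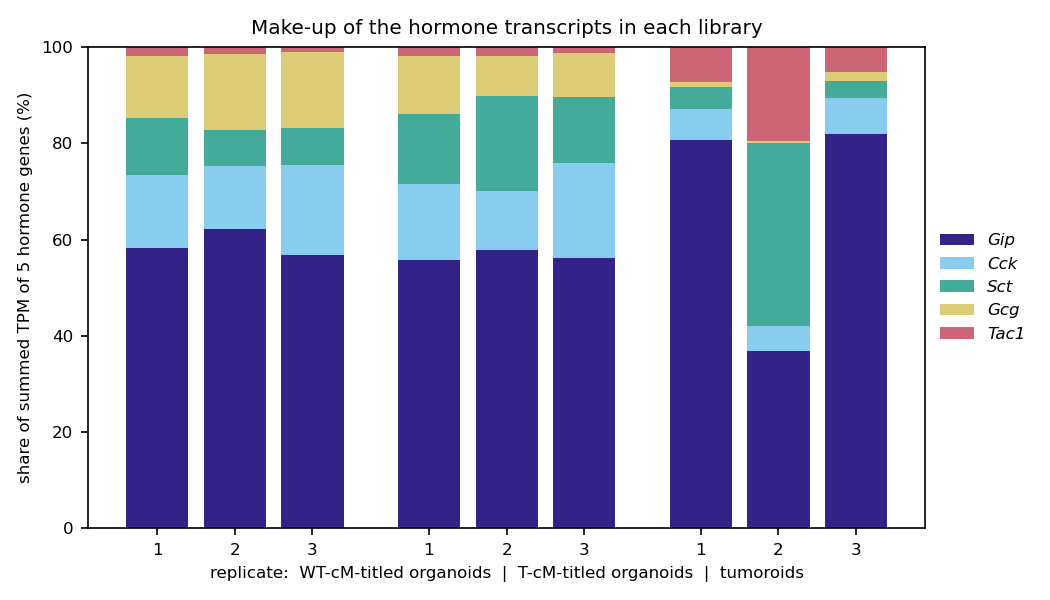
Bars stack the share in percent of each of the 5 peptide hormone genes in their summed TPM, 1 bar per library. Gip fills 55.7% to 62.1% of the organoid bars, and tumoroid 2, whose sum was 18.7 TPM, differs in make-up from tumoroids 1 and 3.

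Against all 6 organoid libraries, tumoroids had lower Gcg, Cck, Sct and Chga and higher Neurog3. That is 5 of 10 genes past the test, a share close to the background, since 50.4% of all tested genes passed (29.6% higher and 20.8% lower). All 5 also passed the fold threshold, which 33.1% of all tested genes did. The median log2 fold change of the 10 genes was -1.07, and that of all tested genes was 0.16. These comparisons used edgeR's quasi-likelihood F test over all 9 libraries without a block. They treated the 6 organoid libraries as independent, although same-numbered ones deviated together.

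Neurog3 was the gene of the 10 that was higher. It had 312, 66 and 289 counts in tumoroids 1 to 3, or 14.1, 2.45 and 9.93 CPM, and between 0.122 and 2.22 CPM in organoids, with a median of 6 counts. Every tumoroid lay above every organoid library, narrowly so for tumoroid 2 against pair 1. The fitted log2 fold change was 3.42 ± 0.86 (SE, adjusted p = 0.0084, edgeR), with a 95% interval from 1.48 to 5.36. The 1674-base Neurog3 gene shares 273 exonic bases with Fam241b on the opposite strand, which had 231 to 471 counts in organoids and 665, 543 and 626 in tumoroids 1 to 3. The library kit marks strand, but the strand setting of the counting is not given in the sources used here, and the part of Fam241b reads in Neurog3 was not tested.

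Neurod1, which acts after Neurog3, did not follow it. It was at 1.90, 0.483 and 0.653 CPM in tumoroids and 1.42 to 2.80 CPM in organoids, a fitted log2 fold change of -1.07 ± 0.49 (SE, adjusted p = 0.097, edgeR). Per 100 TPM of Neurod1, there were 1213, 829 and 2469 TPM of Neurog3 in tumoroids, 130 and 145 in the organoids of pair 1 and 11.9 to 39.1 in the other organoid libraries.

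Gcg, Sct and Cck fell in tumoroids. Gcg had 37, 1 and 54 counts in tumoroids 1 to 3, or 1.68, 0.0372 and 1.85 CPM, against 13.8 to 60.3 CPM in organoids, and the single count of tumoroid 2 is within the limit of 3 counts that a count of 0 allows. The fitted log2 fold change was -4.77 ± 0.76 (SE, adjusted p = 0.00061, edgeR). Sct was at 3.31, 1.23 and 1.55 CPM against 8.51 to 17.3 CPM, a change of -2.74 ± 0.38 on the log2 scale (SE, adjusted p = 0.00025, edgeR) with the smallest error of the 3. Cck was at 9.02, 0.335 and 6.39 CPM against 17.6 to 61.9 CPM, a change of -2.83 ± 0.76 on the log2 scale (SE, adjusted p = 0.012, edgeR). Gcg, Sct and Cck did not overlap between tumoroids and organoids, nor did Neurog3, and 45.8% of all tested genes did not overlap.

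Gip differed between the tumoroids and did not pass the test. It was at 61.2, 1.26 and 37.2 CPM, with tumoroid 1 inside the organoid range of 43.8 to 99.3 CPM and tumoroid 2 far below it. The fitted log2 fold change was -1.07, with a 95% interval from -2.80 to 0.65. Tac1 was at 27.3, 3.31 and 11.4 CPM against 6.14 to 12.8 CPM, above the organoid range in tumoroid 1, within it in tumoroid 3 and below it in tumoroid 2. Its interval ran from -0.52 to 1.77, and without tumoroid 2 it reached 1.08 with an adjusted p of 0.031. Tph1 was at 27.4, 4.95 and 9.69 CPM against 10.1 to 17.3 CPM, with an interval from -0.87 to 1.15.

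Of the granins, Chga passed the test and Chgb did not, and the difference between them was not tested. Chga was at 51.3, 19.4 and 17.6 CPM in tumoroids, of which the first lay within the organoid range of 39.8 to 82.9 CPM. Its fitted log2 fold change was -1.07 ± 0.35 (SE, adjusted p = 0.028, edgeR). Chgb was at 574, 44.1 and 114 CPM, above the organoid range of 165 to 326 CPM in tumoroid 1 and below it in the others, and its fitted change was -0.03 with an interval from -1.43 to 1.38. The ratio of Chgb to Chga in TPM was 2.45 to 3.19 in organoids and 7.68, 1.56 and 4.46 in tumoroids.

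**Figure D4:**
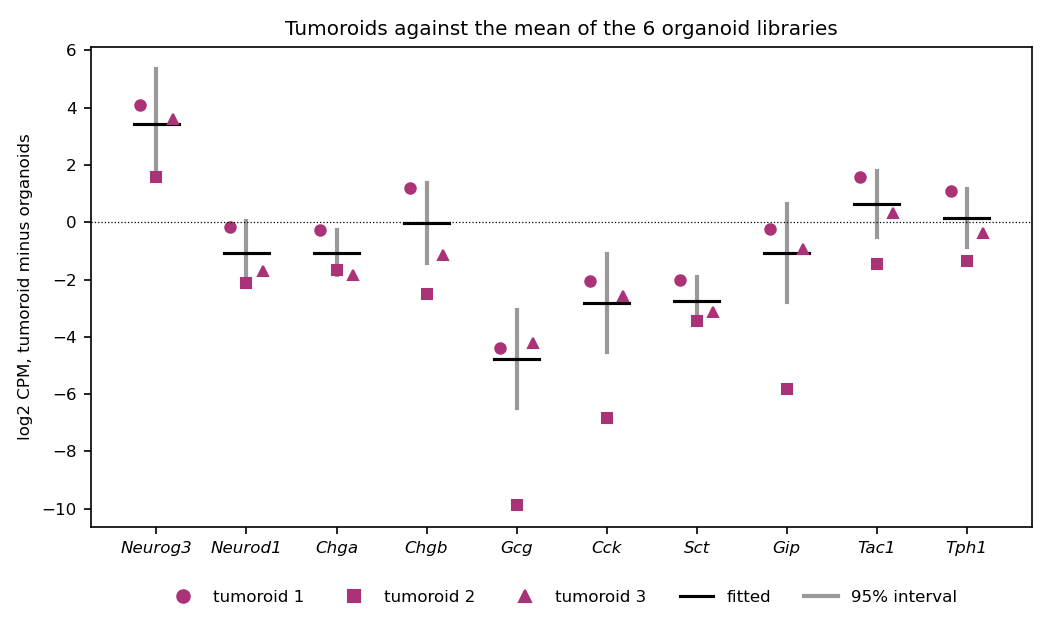
The vertical axis is the log2 CPM of a tumoroid minus the log2 of the mean CPM of the 6 organoid libraries. Symbols are the 3 tumoroids, black bars the fitted log2 fold changes and grey bars their 95% intervals. Tumoroid 1 is the highest of the 3 except for Gcg, and the lowest point of all, Gcg in tumoroid 2, rests on 1 count.

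Single cultures decided several of these calls. Without tumoroid 1, Chgb was lower (-1.65 on the log2 scale, adjusted p = 0.0099, edgeR) and so was Neurod1 (-1.89, adjusted p = 0.0081, edgeR). The call of Chga was lost without tumoroid 2 (adjusted p = 0.087) or tumoroid 3 (adjusted p = 0.076), without T-cM-titled organoids 1 (adjusted p = 0.052) or WT-cM-titled organoids 3 (adjusted p = 0.055), and under 6 other alternatives, while those of Gcg and Sct held under all 23 alternatives tried. With replicate 3 left out of every group, Neurog3 (2.88, adjusted p = 0.053) and Cck (-2.77, adjusted p = 0.067) missed the threshold by edgeR. Against WT-cM-titled organoids alone, where 41.9% of all tested genes passed, Chga was at -1.31 (adjusted p = 0.022) and Gcg at -5.31 (adjusted p = 0.00066). With T-cM-titled organoids as the reference, where 44.5% passed, Chga was at -0.82 (adjusted p = 0.11) and Gcg at -4.23 (adjusted p = 0.0018). These comparisons share the tumoroid libraries.

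For the genes around the 10, changes are log2 fold changes by the same tests, and counts stand beside 50.4% of all tested genes past the test in tumoroids (29.6% higher and 20.8% lower). The 10 genes themselves reached 1 TPM in both kinds of culture. Some genes around them did so in tumoroids only (Hhex, Adcyap1, Fgf15, Hdc and Gipr among those called higher) or in organoids only (Insl5, Ffar3, Trpa1 and Gcgr among those called lower), so that their direction was favoured by the filter and counts that hold them are descriptions. Other transcription factors of the endocrine path were measured from a list of 20, of which 15 were tested. In tumoroids 4 were higher and 1 was lower, a smaller share than that of all tested genes. Sox4, which acts in endocrine progenitors, was at 143, 118 and 445 CPM in tumoroids and 13.8 to 33.9 CPM in organoids (log2 fold change 3.53, adjusted p = 9.9e-05, edgeR). Foxa1 and Foxa2, forkhead factors of gut endoderm that take part in endocrine differentiation, rose by 1.52 and 2.23, with Foxa2 in tumoroid 2, at 3.72 CPM, inside the organoid range of 1.95 to 4.07 CPM, and Hhex, which is needed for somatostatin cells, by 2.39. Mnx1, a motor neuron and islet factor, fell by 2.88. Between the organoid groups, 0 of the 15 passed with edgeR (2 at an unadjusted p under 0.05), with limma voom or with DESeq2, which gave no adjusted p for 5.

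Among 15 other gut hormone genes, 11 were tested, 3 were higher and 2 were lower in tumoroids. Edn1, the endothelin made by many epithelia, was at 106, 141 and 120 CPM against 9.62 to 16.4 CPM in organoids (log2 fold change 3.24, adjusted p = 1.4e-06, edgeR). Fgf15, the ileal hormone that restrains bile acid synthesis, rose by 4.11. Adcyap1, which encodes the neuropeptide PACAP, had 19, 428 and 4 counts in tumoroids and 0 in every organoid library. Nts, which encodes neurotensin, fell by 2.67. Insl5, a peptide of L cells of the large intestine, passed as lower with 0 counts in every tumoroid, but it had at most 5 counts in organoids, and that call was lost without any of the tumoroids (adjusted p of 0.068 to 0.069, edgeR) and without 4 of the 6 organoid libraries. Sst, which encodes somatostatin, was at 12.6, 0 and 1.75 CPM against 12.3 to 27.9 CPM and did not pass (adjusted p = 0.17, edgeR). Ghrl, which encodes ghrelin, was at 12.9, 0.372 and 16.9 CPM against 8.75 to 19.2 CPM, so that tumoroid 2 was again the low culture. In the organoid comparison 0 of the 11 passed with edgeR (1 at an unadjusted p under 0.05) or limma voom, and 0 with DESeq2, which gave no adjusted p for 6, and Nts was nearest with a fitted change of -0.81 (adjusted p = 0.0502, edgeR).

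Of 19 genes for granules and peptide processing, 17 were tested, 4 were higher and 1 was lower in tumoroids, again a smaller share than the 50.4% of all tested genes. Pam, the enzyme that amidates peptide ends, was at 87.96, 101.4 and 184.3 CPM against 14.8 to 22.8 CPM (log2 fold change 2.72, adjusted p = 1.1e-05, edgeR). Cplx2 and Syt7, both parts of the release machinery, rose by 1.88 and 1.16, and Cpe, the carboxypeptidase that trims prohormones, by 1.35, a call that was lost without tumoroid 1 (1.10, adjusted p = 0.069) or tumoroid 3 (1.01, adjusted p = 0.068). Cpe was at 39.5, 8.92 and 41.8 CPM in tumoroids 1 to 3 against 10.7 to 15.2 CPM in organoids, so tumoroid 2 was below every organoid library. Ptprn, a membrane protein of dense-core granules, fell by 2.94. Pam and Cpe are also made outside endocrine cells. In the organoid comparison 0 of the 17 passed with edgeR (6 at an unadjusted p under 0.05) or limma voom, and 0 with DESeq2, which gave no adjusted p for 3.

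Of 8 genes for amines besides Tph1, 7 were tested, of which 1 was higher and 3 were lower in tumoroids, a share near the 50.4% of all tested genes. Ddc, the decarboxylase that completes serotonin synthesis, was at 23.7, 2.71 and 12.5 CPM in tumoroids and 195 to 435 CPM in organoids (log2 fold change -4.63, adjusted p = 0.00022, edgeR). Maoa, which degrades serotonin, fell by 3.91 and the serotonin transporter Slc6a4 by 2.11. All 3 are abundant in enterocytes, whose 6 markers summed to 23.7 to 208 CPM in tumoroids against 13059 to 27176 CPM in organoids, and the part of enterocytes in these changes was not tested. Hdc, which makes histamine and also stands in the gastric marker list, was at 17.9, 4.31 and 4.12 CPM against 0.0564 to 0.385 CPM (log2 fold change 5.42). Ddc was higher in T-cM-titled than in WT-cM-titled organoids, at 435, 429 and 325 CPM against 324, 264 and 195 CPM (log2 fold change 0.63, adjusted p = 2.3e-06, edgeR), without overlap. The amine loader Slc18a1 was higher by 0.41 and Slc6a4 was lower at -0.28, but neither passed with limma voom (adjusted p of 0.055 and 0.069) or DESeq2 (0.060 and 0.091). Without pair 2 the calls of Ddc, Slc18a1 and Slc6a4 were lost, as were those of Dpp4, Mme and Dll1 given below.

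Among nutrient sensors, 9 of 13 genes were tested, 1 was higher and 2 were lower in tumoroids, below the 50.4% of all tested genes, and 0 passed between the organoid groups with edgeR (0 at an unadjusted p under 0.05) or limma voom, and 0 with DESeq2, which gave no adjusted p for 5. Ffar4, a receptor for long-chain fatty acids, rose by 3.68, and Trpa1, an irritant sensor of enterochromaffin cells, and Ffar3, a receptor for short-chain fatty acids, fell by 4.80 and 2.06. Of 18 receptors and hormone-degrading enzymes 7 were tested. Mme, a membrane peptidase, fell by 6.27 in tumoroids, the glucagon receptor Gcgr by 2.19, and the receptor for Gip, Gipr, rose by 1.62 from at most 14 counts in an organoid library to 30, 49 and 26 in tumoroids. Gcgr had 5, 3 and 2 counts in tumoroids and 3 to 43 in organoids, and its call was lost without WT-cM-titled organoids 3, which held the 43 (-1.70, adjusted p = 0.055, edgeR), without T-cM-titled organoids 1 or 3 and without tumoroid 2 or 3. That of Gipr was lost without tumoroid 2 (adjusted p = 0.059, edgeR). Dpp4, the peptidase that inactivates GLP-1 and Gip, was at 169, 241 and 213 CPM in WT-cM-titled organoids and 150, 169 and 156 CPM in T-cM-titled organoids (log2 fold change -0.37, adjusted p = 0.0027, edgeR), with Mme lower there too (-0.27), though Mme did not pass with limma voom (adjusted p = 0.11) or DESeq2 (adjusted p = 0.064). Dpp4 and Mme are brush border enzymes.

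The choice between secretory and absorptive fate is made through Notch, and all 8 genes of that list were tested. In tumoroids Sox9, Notch1 and Hes1 rose by 2.23, 0.94 and 0.68, and Atoh1, the factor that opens the secretory fate, Spdef and the Notch ligand Dll1 fell by 1.37, 2.01 and 1.52. Atoh1 was at 5.76, 1.26 and 4.19 CPM in tumoroids and 8.63 to 10.3 CPM in organoids, so tumoroids had more Neurog3 and less Atoh1. Between the organoid groups, Dll1 was the gene that passed, at 43.2, 89.2 and 70.1 CPM in T-cM-titled against 36.4, 44.3 and 36.6 CPM in WT-cM-titled organoids (log2 fold change 0.75, adjusted p = 3.1e-05, edgeR).

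**Figure D5:**
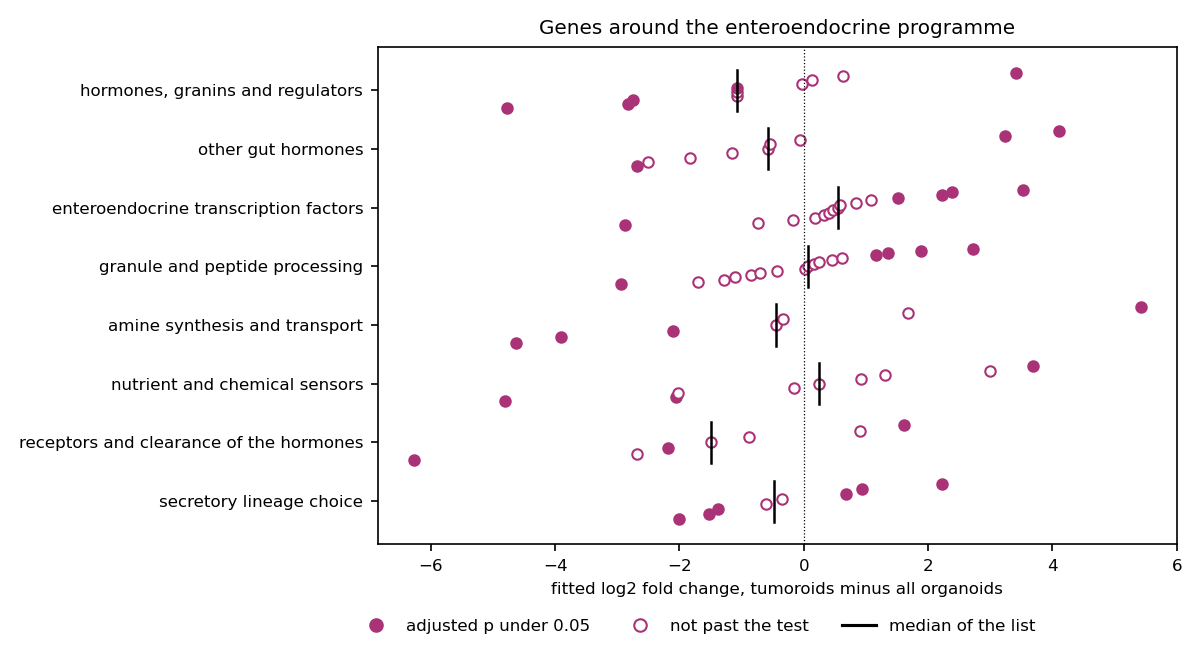
The horizontal axis is the fitted log2 fold change of tumoroids against all organoids, 1 point per tested gene in 8 lists, filled where the adjusted p was under 0.05, and bars mark medians. Genes with 0 counts in every tumoroid or in every organoid library (Adcyap1 and Insl5 among those tested) are left out. Neurog3, Sox4 and Hdc lie to the right, and Gcg, Ddc, Trpa1 and Mme lie to the left. Hdc reached 1 TPM in tumoroids only and Trpa1 in organoids only, so the filter favoured their direction. Other genes of that kind stay among the points and in the medians.

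Markers of the other cell types moved in the same comparisons. In tumoroids 6 of 7 goblet and 6 of 6 enterocyte markers were lower and 3 of 4 stem markers were higher, against 20.8% of all tested genes lower and 29.6% higher, with Lgr5 above 1 TPM in tumoroids only and Lct in organoids only. Of 6 Paneth markers 3 were lower and 1, Mmp7, was higher, though Lyz1 was not past the test without tumoroid 1 (adjusted p = 0.080, edgeR) or WT-cM-titled organoids 3 (adjusted p = 0.051, edgeR), and of 5 tuft markers tested 2 were higher and 1 was lower. Of 7 gastric epithelium markers, 3 of those called higher (Muc5ac, Sox2 and Hdc) reached 1 TPM in tumoroids only, so the list is given by its summed levels, 0.740 to 4.75 CPM in organoids and 37.7, 7.21 and 43.6 CPM in tumoroids 1 to 3. Among these, Muc5ac had 388, 52 and 283 counts and Sox2 had 14, 14 and 812 counts in tumoroids, and both had 0 in every organoid library, whereas Tff1 went the other way, with 1, 0 and 4 counts in tumoroids and 5 to 59 in organoids. In T-cM-titled organoids 4 of 6 Paneth markers (Ang4, Defa17, Itln1 and Mmp7) were lower beside Gcg, Gip, Cck and the granins, at -0.26 to -0.49 on the log2 scale, against 5.05% of all tested genes lower in that comparison. Of 4 stem markers 2 were lower there (Ascl2 -0.66 and Smoc2 -0.61), with a median of -0.64 over the list, 1 of 7 goblet markers was lower (Spink4 -0.35), and of 6 enterocyte markers Alpi was higher (0.75) and Fabp1 (-0.61) and Lct (-0.48) were lower. Without pair 2 none of these 10 marker calls passed edgeR's test (adjusted p of 0.16 to 0.61). The part of these cell types in the changes of the 10 genes was not tested. Neurog3, Neurod1, Chga and Gcg also mark islet cells, but Ins1, Ins2 and Ppy had no count in any library, and the 5 islet markers, mostly Pdx1, summed to 14.7 to 21.4 CPM in organoids and 44.5, 4.42 and 27.6 CPM in tumoroids. Mesenchymal markers summed to at most 0.687 CPM and 6 neuronal markers, mostly Ret, to 5.29 to 6.75 CPM in organoids and 2.76 to 3.54 CPM in tumoroids, where Ret was lower (-1.30). Immune markers summed to 0.824 to 4.90 CPM in organoids and 7.48 to 26.7 CPM in tumoroids, where Cd68 and Csf1r were higher, the latter not without tumoroid 2 (adjusted p = 0.18, edgeR), and Cd3e had no count.

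How the 10 genes vary together was described over the 6 organoid libraries, as deviations of log2 CPM from the group mean, with no test. These libraries share the replicate pairs and leave few independent points, so high correlations are common among 11823 genes. With Chga, Chgb had a Pearson r of 0.966 (rank 53), Gip 0.956 (rank 77) and Neurod1 0.955 (rank 82). Tph1, Cck and Gcg followed at 0.915, 0.905 and 0.854, and Sct and Tac1 at 0.703 and 0.696. Among the 10 genes most like Chga were RP24-157P13.4, Snapin, Stx6, 2700062C07Rik, Rpl34, Rpl4, Zdhhc8, Plekhd1 and Dhps, from 0.997 down to 0.990. For the mean of 9 genes (Neurog3 left out for its low counts) they included RP24-157P13.4, Rpl34, Snapin, Plekhd1, Fam149b, Hp1bp3, Jag2, Paox and Zfp414, from 0.999 down to 0.987.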

How the data were processed

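RNA was sequenced from 9 libraries. After alignment on mm10 with STAR, the authors deposited a table of raw counts and a table of TPM (transcript abundance scaled for gene length and depth) for the same genes. The counting tool and the way TPM was computed are not given in the sources used here. TPM followed counts divided by annotated exon length within 0.1 on the log2 scale for 86% of 6820 genes with at least 5000 counts.

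The 16208 genes that reached 1 TPM in any library were tested in R 4.3.3 with edgeR 4.0.16 (TMM factors, quasi-likelihood in its older form, Benjamini-Hochberg adjustment). The study itself used limma voom, which is an alternative here, as is DESeq2 1.42.0 (limma 3.58.1). As in the study, organoids were fitted with a replicate block. Same-numbered organoid libraries deviated together (r of 0.546, 0.338 and 0.547 over 16208 genes). SE is the log2 fold change divided by the square root of F, and 95% intervals use the t distribution of the fit. CPM used TMM-scaled totals. Limits of 3 counts cover counting error only. The method was tested on simulated data.

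Positions came from Gencode M21 (GRCm38) and promoters from RefSeq (GRCm38.p6). The 10 genes and all lists were chosen with earlier results of these data known. The genes named were the 10, up to 6 per list with the smallest p in each of 2 comparisons, Apc, and the 10 most alike over the organoid libraries (Pearson, at least 1 CPM), of which 1 is not reported here. Genes overlapping the 10 were named as partners, and markers of other cells from their lists after their values were seen.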

Additional observations from a re-analysis of the deposited data

How the results depend on the processing

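Taking the medium from the treatment field turned every organoid direction (Neurog3 -0.27, Neurod1 -0.088, Chga 0.48, Chgb 0.30, Gcg 1.11, Cck 0.52, Sct -0.28, Gip 0.60, Tac1 0.30 and Tph1 -0.00228 on the log2 scale). Counts over all genes in this section need both the test and the fold threshold unless stated otherwise. Counts of the 10 genes and of the lists need the test alone. Between the organoid groups, 179 genes passed test and fold threshold and 1634 passed the test alone. With both, 104 passed with limma voom, 93 with DESeq2, and 0 and 0 with limma on log2(TPM + 1) and log2(TPM + 0.1). Of the 10 genes, 3, 4, 0 and 0 passed the test alone with these 4 (5 at an unadjusted p under 0.05 in both TPM fits). Without the replicate block 0 genes passed (904 at an unadjusted p under 0.05), and 0 of the 10. Leaving out a pair gave 1 to 385 genes, 0 to 5 of the 10, and -0.16 to 0.23 for Neurod1 and -0.18 to 0.17 for Tph1, whose fitted change near 0 also turned with DESeq2 (-0.00205), RLE factors (-6.86e-05), upper-quartile factors (-0.019), no TPM filter (-0.000547) and library totals (-0.023). The cause was not tested.

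Against all, WT-cM-titled and T-cM-titled organoids, 5363, 4834 and 5057 genes passed in tumoroids (8165, 6796 and 7214 with no fold threshold), 4450 to 5368, 3546 to 4857 and 3760 to 5149 on leaving libraries out. Of the 10, 5, 5 and 4 passed the test alone, with 2 to 7, 2 to 7 and 2 to 6 on leaving libraries out. In the same order those ranges were -1.65 to 0.45, -1.80 to 0.30 and -1.50 to 0.60 for Chgb, -0.30 to 1.08, -0.44 to 0.93 and -0.15 to 1.22 for Tac1, and -0.80 to 0.52, -0.79 to 0.53 and -0.80 to 0.51 for Tph1. These 3 genes, none past the test, also turned with limma voom (Tph1 -0.25, -0.26 and -0.25, Tac1 -0.012 against WT-cM-titled and Chgb -0.60 against T-cM-titled organoids). Chgb turned with upper-quartile factors (0.12) and library totals (0.36, and 0.21 against WT-cM-titled organoids), and against T-cM-titled organoids with log2(TPM + 1) and log2(TPM + 0.1) (-0.094 and -0.098). The labels do not tie tumoroids to organoids of the same number, although tumoroids made the T-cM, and deviations of same-numbered libraries correlated at -0.07 to 0.20. A replicate block gave Tph1 -0.12, -0.14 and -0.095, Chgb -0.44 against T-cM-titled organoids, and 6 of the 10 past the test against all organoids. With limma voom against all organoids, 3 gut hormone genes were higher and 5 lower, and 3 granule genes were higher and 4 lower. Of all 16208 genes tested that way, 9175 were at an unadjusted p under 0.05, a looser rule. Counts of 1 to 7 for Neurog3 and Gcg in single libraries limit their precision.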
